A study of Mus musculus with 12 samples.

Results

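The genes of the PI3K, Akt and mTOR pathway were examined in Schwann cells (SCs) of the mouse sciatic nerve at postnatal day 5. The 41 members were listed by name from what is known of the pathway, from the ligand Igf1 to the translation factor Eif4e, and all 41 were among the 25700 genes of the deposited count table. RNA was sequenced from 12 libraries, 4 from each of 3 FACS gates, and the 4 mice behind each gate were 2 males and 2 females, which the labels do not assign to numbers. All mice carried P0Cre (P0Cre-/+), a Cre transgene active in the Schwann cell lineage, with a Rosa26 stop-YFP reporter (ReYFP Tg/+) and a ubiquitous DsRed transgene (βAct-DsRed Tg/+), on a C57bl/6J background. There was no mutant or treated group. The allSC gate took every eYFP-positive cell, the mSC gate took the eYFP-positive cells of high side scatter (enriched for myelinating SCs) and the nmSC gate those of low side scatter (enriched for SCs that do not myelinate). The gates enrich rather than purify, so in these pools fewer cells of a type and less RNA per cell cannot be told apart.

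Insulin-like growth factors and insulin act on the receptors Igf1r and Insr, which pass the signal through the adaptors Irs1 and Irs2 to PI3K. The lipid made by PI3K recruits Pdpk1 and Akt to the membrane, and Akt phosphorylates FoxO factors, Gsk3 and Tsc2. Inhibition of the Tsc1-Tsc2 complex releases the small GTPase Rheb, which activates mTOR complex 1 and through it the S6 kinases and cap-dependent translation. mTOR complex 2 phosphorylates Akt and the related kinase Sgk1. In Schwann cells this pathway is known for promoting myelin growth, while high mTOR complex 1 activity before the onset of myelination holds back differentiation. RNA levels of these genes do not measure the activity of the kinases.

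The library totals ran from 8180927 to 16918122 counts, so that 3 counts corresponded to between 0.198 and 0.375 CPM (counts per 1000000). CPM here are scaled with TMM factors, which adjust library sizes for differences in composition, and these were 0.744 to 0.871 in mSC, 0.986 to 1.03 in allSC and 1.16 to 1.28 in nmSC. One library stood apart: mSC replicate 4 differed from the other mSC libraries by a chi-square of at least 50.6 per degree of freedom, whereas no other pair within a gate exceeded 22.1. It was the highest or lowest mSC library for 34 of 41 members (82.9%) and for 70.1% of all tested genes. Of 8 Schwann cell markers, 4 were called higher and 2 lower in mSC than in nmSC, with a median log2 fold change of 0.25. Their summed CPM were 28533 to 61549 in mSC, 24673 to 33346 in allSC and 8338 to 10545 in nmSC. S100b, 1 gene of this list, was at 215 to 361 CPM in mSC, 99.6 to 129.7 in allSC and 27.8 to 35.4 in nmSC. Of other cell types, the summed CPM of 11 immune markers were 17.2 to 25.5 in mSC and 23.7 to 33.0 in nmSC, with Aif1, C1qa, C1qb, Tyrobp and Fcer1g below 1 CPM on average. The 8 fibroblast markers summed to 891 to 2253 CPM in mSC and 9407 to 14276 in nmSC, almost all of it from Col1a1 and Col3a1, and Dpt and Osr2 were below 1 CPM. Perineurial markers summed to 136 to 216 CPM in mSC and 203 to 338 in nmSC, endothelial markers to 52.5 to 73.2 and 17.7 to 29.9, and mural markers to 101 to 203 and 58.9 to 97.6. Neuronal markers summed to 20.7 to 31.8 CPM in mSC and 14.2 to 18.4 in nmSC, and muscle markers to 18.4 to 30.7 and 37.5 to 51.1. The endothelial and mural sums rest on a few abundant genes: of 6 tested endothelial markers 2 were called higher (Kdr and Egfl7) and 2 lower (Pecam1 and Tek) in mSC, with a median log2 fold change of -0.94, and of 7 mural markers 2 were higher (Tagln and Pdgfrb) and 1 lower (Myh11), with a median of -0.39. No listed marker of these types was at 0 in every library. The counts of called markers given here stand against 20.4% of all tested genes higher and 20.2% lower in mSC, with a median log2 fold change of -0.16. The part of cell mixture in the differences described next was not tested.

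Between mSC and nmSC, 12 of the 41 members were higher and 9 were lower in mSC (edgeR quasi-likelihood test, adjusted p below 0.05 over 18597 tested genes). All 41 members passed the filter on low counts, and the lowest count of any member in any library was 22. Of all tested genes, 20.4% were higher and 20.2% were lower in mSC, 40.5% in either direction. Without mSC replicate 4, 15 members were higher and 9 lower. Calls were made at every level of the pathway except the PI3K catalytic subunits. The 20 members that were not called had log2 fold changes from -0.31 to 0.58. The median log2 fold change was 0.16 over the members and -0.16 over all tested genes.

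Both called and changed at least 2-fold were 5 of the 41 members, where 21.4% of all tested genes were. Sgk1, Irs1 and Rheb were higher in mSC, and Deptor and Ddit4 were lower. The 4 mSC libraries lay entirely above the 4 nmSC libraries for 10 members and entirely below them for 8, and overlapped for 23. Over all tested genes the corresponding shares were 16.8% and 17.4%. The direction was sensitive to scaling for the smaller changes: with library size alone, 5 members were higher and 22 lower, and the median of all tested genes moved to -0.73. Under 20 other settings of the fit, 11 members kept their call in every one: Sgk1, Irs1, Rheb, Sesn1 and Sesn3 higher in mSC, and Deptor, Ddit4, Igf1r, Irs2, Phlpp1 and Sesn2 lower. Another 3, Akt1, Pik3r3 and Rps6ka1, lost theirs with library size alone and kept it elsewhere.

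**Figure D1:**
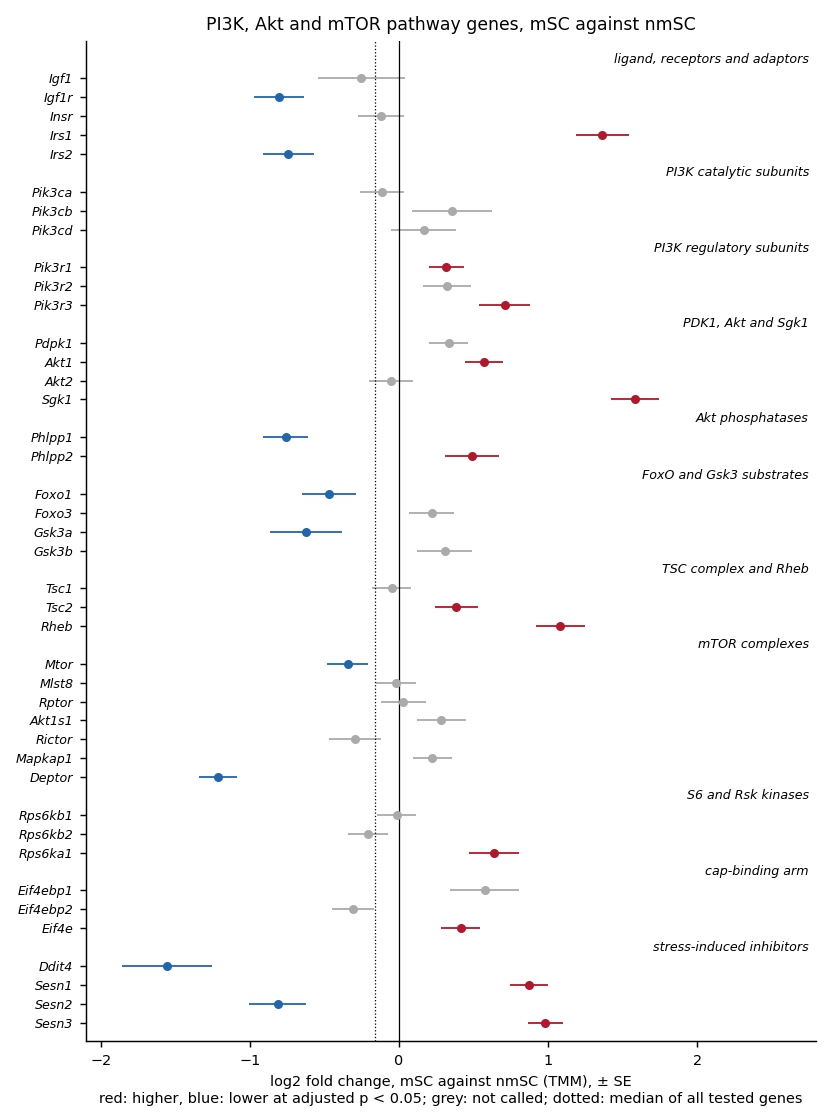
Log2 fold change (± SE) of each of the 41 members in mSC against nmSC, grouped by role, with 4 libraries per gate. The 12 red points were called higher and the 9 blue points lower, and the dotted line at -0.16 is the median of all tested genes.

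Promoter sequences of the pathway were read from RefSeq (GRCm38.p6), in which 37 of the 41 members have an entry of 250 bases before and 50 after the start; Deptor, Insr, Eif4ebp1 and Rps6kb2 have none there. Among 8 short motifs searched, CACGTG, the E-box letters bound by Myc, Mitf and Tfe3 family factors and by Usf1, stood in a promoter of 5 members: Sgk1, Irs1, Rheb and Eif4e, which were higher in mSC, and Irs2, which was lower. That is 4 of the 12 higher members, 1 of the 8 lower members with an entry and 0 of the 17 not called, where 8.09% of all genes (7.15% of all promoters) hold it. The motifs were chosen with these results known, so the counts are a description, and a missing match says nothing about a factor. The letters read the same on both strands. Sgk1 has 6 promoters in the table and only the one shown holds CACGTG in its 250 upstream bases, which makes a match likelier for it than for a gene with 1 promoter. The 250 bases before the start are shown for the 3 members with CACGTG that rose at least 2-fold and for Irs2, the adaptor that went the other way, with CACGTG in capitals. They lie at chr10:21993640-21993889 (plus strand), chr1:82291440-82291689, chr5:24842362-24842611 and chr8:11008930-11009179 (minus strand). The match begins 246, 115, 96 and 44 bases before the RefSeq start, in that order. For Sgk1, Irs1 and Rheb, bases after this start were found somewhere in a GENCODE M21 transcript of the gene, and for Irs2 they were not. Such a match does not show that a transcript begins there, so all the distances rest on the RefSeq start alone. The stretches of Sgk1 and Rheb lie within the GENCODE bounds of these genes (chr10:21882184-21999903 and chr5:24802823-24842624). Those of Irs1 and Irs2 lie outside the bounds of theirs.
Sgk1: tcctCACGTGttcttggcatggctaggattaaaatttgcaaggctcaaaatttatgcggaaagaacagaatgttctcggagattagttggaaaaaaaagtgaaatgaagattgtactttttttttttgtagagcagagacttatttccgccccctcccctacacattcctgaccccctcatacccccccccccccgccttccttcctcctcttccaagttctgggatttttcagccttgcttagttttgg
Irs1: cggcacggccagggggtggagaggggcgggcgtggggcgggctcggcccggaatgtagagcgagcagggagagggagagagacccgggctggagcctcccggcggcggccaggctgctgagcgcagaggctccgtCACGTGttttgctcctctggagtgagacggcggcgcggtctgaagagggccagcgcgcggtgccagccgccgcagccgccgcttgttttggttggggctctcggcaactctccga
Rheb: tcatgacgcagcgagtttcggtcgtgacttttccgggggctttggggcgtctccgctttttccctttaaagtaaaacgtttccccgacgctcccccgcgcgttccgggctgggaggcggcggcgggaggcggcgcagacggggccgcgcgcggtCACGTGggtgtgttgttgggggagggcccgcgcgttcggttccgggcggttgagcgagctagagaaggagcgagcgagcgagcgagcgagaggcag
Irs2: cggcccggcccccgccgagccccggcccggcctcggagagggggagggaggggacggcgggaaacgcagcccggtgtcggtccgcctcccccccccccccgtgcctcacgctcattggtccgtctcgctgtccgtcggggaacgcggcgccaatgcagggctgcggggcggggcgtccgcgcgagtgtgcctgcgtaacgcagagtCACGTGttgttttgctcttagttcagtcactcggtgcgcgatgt

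The FoxO core GTAAACA stood in promoters of Akt1, Sesn1 and Mapkap1 and in those of 4.05% of all genes (3.65% of all promoters). Its shorter form GTAAAC, which every GTAAACA contains, stood in those of Pdpk1 and Tsc2 as well, and in those of 8.92% of all genes (7.89% of all promoters). The cyclic AMP response letters TGACGTCA stood in no member's promoter (2.03% of all genes, 1.79% of all promoters), and the amino acid response letters TTGCATCA in that of Pik3cd alone (1.03% and 0.895%). The string ACGTG, part of every E-box match, was in promoters of 12 members and 21.8% of all genes (19.6% of all promoters). AAACA, part of every FoxO core, was in those of 17 members and 54.1% of all genes (50.5% of all promoters). The CCAAT box was in those of 21 members and 41.1% of all genes (37.4% of all promoters). All were searched on both strands.

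At the top of the pathway the adaptor Irs1 was higher in mSC, and the adaptor Irs2 and the receptor Igf1r were lower. Irs1 (ENSMUSG00000055980, chr1:82233101-82291416 on the minus strand), the adaptor that links the insulin and Igf1 receptors to PI3K, was 2.58-fold higher in mSC than in nmSC. It stood at 118, 86.97, 85.3 and 61.2 CPM in mSC replicates 1 to 4, 72.6, 51.2, 58.7 and 47.7 in allSC and 35.3, 34.7, 32.2 and 34.4 in nmSC. Every mSC library exceeded every nmSC library, and the nmSC libraries were nearly equal while the mSC libraries spread widely. The log2 fold change was 1.36 (SE 0.175, adjusted p = 3.54e-06). Of its exon bases, 30.9% are shared with the antisense gene Gm9747, and since the Smart-Seq2 libraries do not keep the strand, reads in the shared part cannot be assigned. Gm9747 was counted at 43.0 to 92.4 CPM in mSC and 20.04 to 25.4 in nmSC, in the same order as Irs1. Its promoter, printed beside those of Sgk1 and Rheb, holds 1 CACGTG.

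Irs2 (ENSMUSG00000038894, chr8:10984681-11008458 on the minus strand), the second adaptor, was lower in mSC. Its CPM were 7.95, 6.17, 6.22 and 7.49 in mSC, 6.05, 5.90, 6.94 and 5.64 in allSC and 13.8, 11.6, 10.5 and 10.8 in nmSC, without overlap between mSC and nmSC. Its log2 fold change was -0.74 (SE 0.171, adjusted p = 0.00188). In Irs2 the allSC libraries were not intermediate but lay with mSC, and nmSC was higher than allSC with a log2 fold change of 0.92 (SE 0.171, adjusted p = 0.00109), a call that held in all 21 fits. Per kilobase of exon, Irs1 made up 89.3% ± 2.91 (SD, n = 4) of the sum of both adaptors in mSC, 86.4% ± 1.87 in allSC and 67.03% ± 2.13 in nmSC. This share is taken within each library and does not depend on how libraries are scaled, and mSC and nmSC did not overlap.

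Igf1r (ENSMUSG00000005533, chr7:67952827-68233668 on the plus strand), the receptor tyrosine kinase for Igf1, was lower in mSC. It measured 15.8, 11.1, 15.6 and 17.2 CPM in mSC, 16.97, 20.8, 16.9 and 16.1 in allSC and 25.7, 21.8, 33.2 and 23.5 in nmSC. All nmSC libraries were above all mSC libraries, by a log2 fold change of -0.80 (SE 0.170, adjusted p = 0.000874). Insr, the insulin receptor, was at 29.5 ± 4.63 CPM in mSC and 31.98 ± 4.41 in nmSC (SD, n = 4), for a log2 fold change of -0.12 (SE 0.153, adjusted p = 0.542). The Igf1r share of the 2 receptors per kilobase was 29.3% ± 2.54 in mSC, 34.5% ± 3.61 in allSC and 39.9% ± 4.68 in nmSC. The ligand Igf1 itself was scarce in every gate, between 2.10 and 6.49 CPM, with a log2 fold change of -0.25 (SE 0.292, adjusted p = 0.498).

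**Figure D2:**
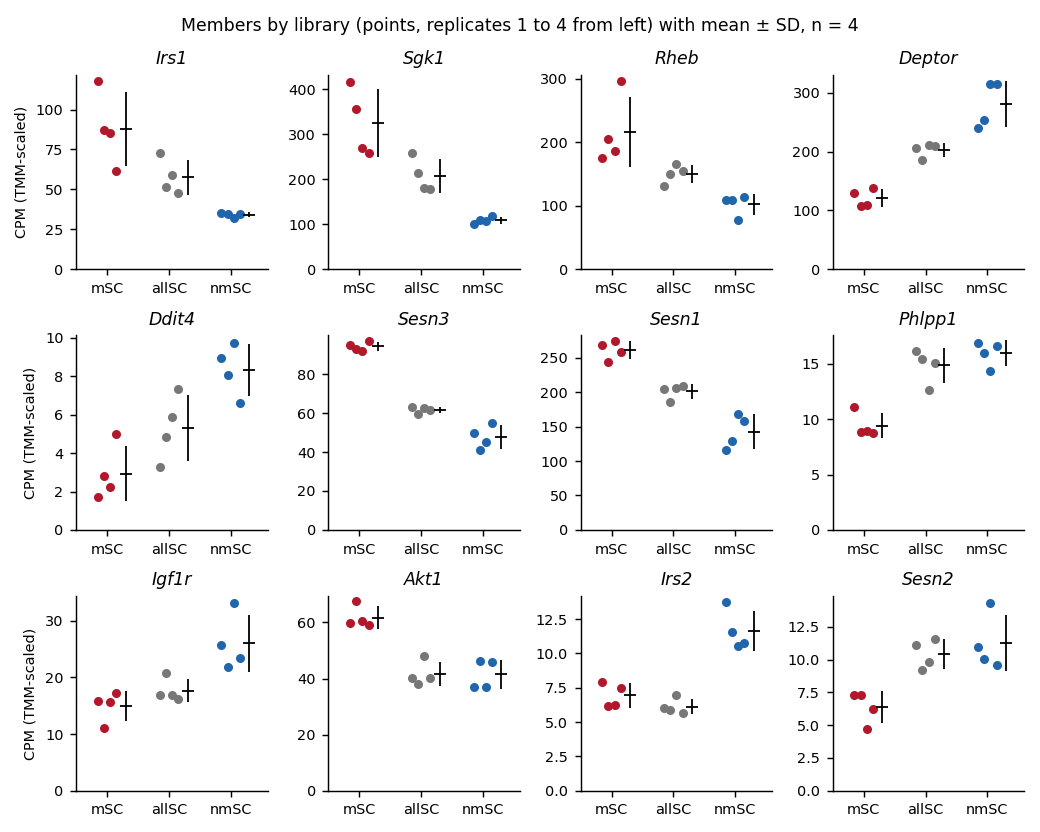
TMM-scaled CPM (linear axes from 0) of the 12 members given in full, with 1 point per library in mSC, allSC and nmSC and the mean ± SD of 4 beside them. In 7 of the 12 all mSC libraries lie above or below all 8 others, and in Deptor the 4 nmSC libraries, from 240.0 to 315, lie above all mSC libraries, from 108 to 138. The 12 were chosen by their difference between mSC and nmSC in these same libraries. The share of all tested genes with mSC apart from all 8 others was not counted.

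The catalytic subunits of PI3K did not pass the test. Levels of different genes are compared in RPKM, which are counts per kilobase of exon and per 1000000 counts. Pik3ca, the catalytic subunit with the highest level per kilobase, was at 2.77 RPKM in mSC and 3.00 in nmSC, Pik3cb at 0.498 RPKM in mSC and 0.394 in nmSC, and Pik3cd at 1.16 RPKM in mSC and 1.04 in nmSC. In the same order their log2 fold changes were -0.11, 0.35 and 0.16. The regulatory subunits, which hold the catalytic subunit at activated receptors, were at several times that level per kilobase, between 7.55 and 23.3 RPKM over the 3 genes in mSC and nmSC. Pik3r3 rose in mSC with a log2 fold change of 0.71 (SE 0.171, adjusted p = 0.0027), although its libraries overlapped (46.7 to 80.3 CPM in mSC, 31.5 to 51.98 in nmSC) and 24.3% of its exon bases are shared with Gm49337. Pik3r1 rose by 0.32 (SE 0.118, adjusted p = 0.0395). Pik3r2 was at 0.32 (adjusted p = 0.111) with all libraries and at 0.49 (adjusted p = 0.00119) without mSC replicate 4, where it read 62.1 CPM against 109 in each of the other mSC libraries.

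Sgk1 (ENSMUSG00000019970, chr10:21882184-21999903 on the plus strand), a kinase of the Akt family's wider group that mTOR complex 2 and Pdpk1 activate, had the largest increase of the 41 members. It was counted at 417, 356, 269.5 and 257 CPM in mSC, 258, 214, 180.0 and 178 in allSC and 101, 109, 106 and 119 in nmSC. Every mSC library was far above every nmSC library, and the allSC libraries lay between, with the highest of them just inside the mSC range. This was a 2.99-fold difference, with a log2 fold change of 1.58 (SE 0.161, adjusted p = 1.74e-07). Sgk1 was also lower in nmSC than in allSC, with a log2 fold change of -0.94 (SE 0.159, adjusted p = 0.00046), and this call held in all 21 fits. Among 10 genes known to respond to glucocorticoids, as Sgk1 does, 5 were higher (Tsc22d3, Errfi1, Mt1, Mt2 and Cdkn1a) and 1, Fkbp5, was lower in mSC, where 20.4% of all tested genes were higher and 20.2% lower. Their median log2 fold change was 0.62, against -0.16 for all tested genes. Their part in the higher Sgk1 was not tested.

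Akt1 (ENSMUSG00000001729, chr12:112653821-112674884 on the minus strand), the kinase at the centre of the pathway, was moderately higher in mSC. Its libraries read 59.7, 67.7, 60.5 and 58.9 CPM in mSC, 40.4, 38.1, 47.9 and 40.3 in allSC and 37.1, 46.2, 36.9 and 45.8 in nmSC. Here mSC stood apart while allSC and nmSC overlapped, with a log2 fold change of 0.57 (SE 0.130, adjusted p = 0.00166) against nmSC and 0.57 (SE 0.129, adjusted p = 0.00461) against allSC. The comparison with nmSC lost its call with library size alone, where it was 0.0052 (adjusted p = 0.973). Akt2 was at 81.6 ± 10.02 CPM in mSC and 84.9 ± 18.4 in nmSC, for a log2 fold change of -0.06 (SE 0.147, adjusted p = 0.78). Within libraries, Akt1 made up 56.9% ± 3.33 of Akt1 and Akt2 per kilobase in mSC, 45.7% ± 3.42 in allSC and 46.3% ± 6.74 in nmSC, again without overlap between mSC and nmSC. Pdpk1, which phosphorylates Akt and Sgk1 alike, was at 0.33 (adjusted p = 0.0519). Among the fits that left out 1 library, it was called without mSC replicate 2, mSC replicate 4 or nmSC replicate 4 (lowest adjusted p = 0.0141). With all libraries it was called by the DESeq2 Wald test (adjusted p = 0.0118) and by edgeR with DESeq2 size factors (0.0235).

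The phosphatases that remove an activating phosphate from Akt also moved apart. Phlpp1 (ENSMUSG00000044340, chr1:106171752-106394250 on the plus strand) fell in mSC, from 16.9, 16.01, 14.4 and 16.6 CPM in nmSC and 16.2, 15.5, 12.6 and 15.1 in allSC to 11.1, 8.87, 8.94 and 8.74 in mSC. The mSC libraries were below all 8 others, with a log2 fold change of -0.76 (SE 0.152, adjusted p = 0.000515) against nmSC and -0.65 (SE 0.152, adjusted p = 0.00516) against allSC. Phlpp2 rose, at 15.02 ± 1.80 CPM in mSC and 10.7 ± 1.92 in nmSC, by 0.49 (SE 0.180, adjusted p = 0.0367), but this call was lost without mSC replicate 1, nmSC replicate 2 or nmSC replicate 3 (highest adjusted p = 0.117). The Phlpp1 share of both phosphatases per kilobase fell from 65.3% ± 3.32 in nmSC and 60.3% ± 5.65 in allSC to 43.9% ± 0.806 in mSC, where the libraries were nearly identical.

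**Figure D3:**
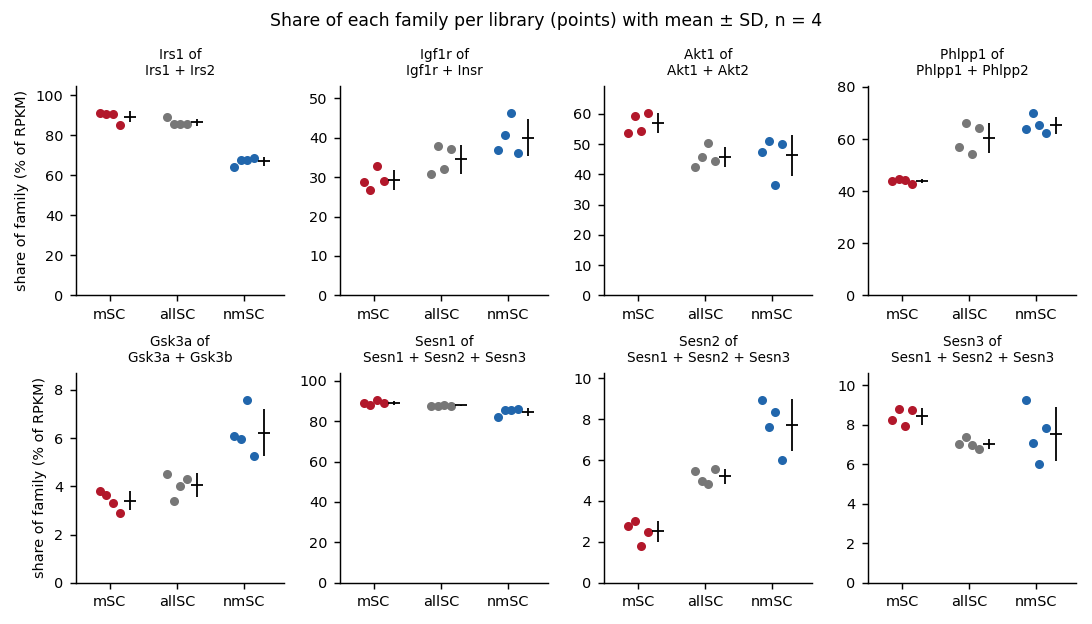
Share of 1 gene in the summed RPKM of its family for each library, with the mean ± SD of 4 per gate. Irs1, Akt1 and Phlpp1 do not overlap between mSC and nmSC, and Sesn2 falls from 7.73% in nmSC to 2.51% in mSC.

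Of the Akt substrates, the FoxO factors and Gsk3 kinases, only the less abundant member of each pair was called. Foxo1, a transcription factor kept out of the nucleus by Akt, was lower in mSC, with a log2 fold change of -0.47 (SE 0.181, adjusted p = 0.0461) and overlapping libraries (11.9 to 17.6 CPM in mSC, 14.2 to 24.7 in nmSC). Gsk3a was lower, with a log2 fold change of -0.62 (SE 0.241, adjusted p = 0.0458), at 2.11 to 3.37 CPM in mSC and 3.89 to 4.52 in nmSC, and 28.3% of its exon bases are shared with an antisense gene. Foxo3 and Gsk3b had log2 fold changes of 0.22 and 0.31 and did not pass the test. Gsk3b was by far the more abundant of the Gsk3 pair, with 26.97 RPKM in mSC and 21.8 in nmSC, against 0.927 RPKM in mSC and 1.42 in nmSC for Gsk3a. Among 12 known transcriptional targets of FoxO factors 5 were higher and 2 lower in mSC, next to the 20.4% and 20.2% of all tested genes. Bnip3, Pik3ip1, Cdkn1b, Sod2 and Gadd45a rose, with log2 fold changes of 2.00, 1.27, 1.00, 0.81 and 0.76, whereas Txnip (-1.57) and Pdk4 (-1.18) fell.

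Between Akt and mTOR complex 1, Rheb and Tsc2 were called higher in mSC. Rheb (ENSMUSG00000028945, chr5:24802823-24842624 on the minus strand), the GTPase that switches mTOR complex 1 on, was counted at 175, 206, 186 and 296 CPM in mSC, 131, 149, 165 and 154 in allSC and 109, 109, 76.7 and 113 in nmSC. All mSC libraries were above all allSC and all nmSC libraries, with mSC replicate 4 far the highest. It was 2.11-fold higher in mSC, with a log2 fold change of 1.08 (SE 0.165, adjusted p = 2.89e-05) and of 0.90 without mSC replicate 4. Tsc1, the scaffold of the complex that turns Rheb off, was at 28.3 ± 4.31 CPM in mSC and 29.2 ± 1.58 in nmSC, for a log2 fold change of -0.05 (SE 0.132, adjusted p = 0.783). Tsc2, the subunit that acts on Rheb, was higher in mSC by 0.39 (SE 0.142, adjusted p = 0.0378) with overlapping libraries, and 7.20% of its exon bases are shared with Pkd1. Within libraries the RPKM ratio of Rheb to Tsc2 was 1.46 to 3.70 in mSC and 0.789 to 1.58 in nmSC, which overlapped. The ratio of Rheb to Tsc1 was 8.75 to 13.7 in mSC and 4.26 to 5.93 in nmSC, which did not. From the wider list, Tbc1d7, a further subunit of the Tsc complex, rose by 0.85 (SE 0.171, adjusted p = 0.000574), and Rhebl1, a paralogue of Rheb, fell by 1.01 (SE 0.210, adjusted p = 0.000715) on the log2 scale.

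Of the 7 genes of the mTOR complexes 2 were called, both lower in mSC. Deptor (ENSMUSG00000022419, chr15:55112317-55259271 on the plus strand), which binds mTOR and inhibits both complexes, was at 129.7, 108, 109 and 138 CPM in mSC, 206, 186, 211 and 209 in allSC and 239.8, 254, 315 and 315 in nmSC. The gates formed 3 steps without overlap, the lowest in mSC. The log2 fold change of mSC against nmSC was -1.21 (SE 0.130, adjusted p = 3.19e-07), a 2.32-fold lower level, and mSC was also below allSC, at -0.75 (SE 0.129, adjusted p = 0.000375), in all 21 fits. Per kilobase, Deptor was more abundant than mTOR in every gate, and the RPKM ratio of Deptor to Mtor rose from 3.56 ± 0.627 in mSC through 5.48 ± 0.661 in allSC to 6.48 ± 0.872 in nmSC (SD, n = 4), without overlap between mSC and nmSC. Mtor, the kinase, was lower in mSC, with a log2 fold change of -0.35 (SE 0.135, adjusted p = 0.0477). The complex 1 subunits Rptor (0.03) and Akt1s1 (0.28), the complex 2 subunits Rictor (-0.30) and Mapkap1 (0.22) and the shared subunit Mlst8 (-0.02) did not pass the test.

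Downstream of mTOR complex 1 the S6 kinases did not pass the test, with log2 fold changes of -0.01 for Rps6kb1 and -0.21 for Rps6kb2. Rps6ka1, an S6 kinase fed by the Erk pathway, was higher in mSC by 0.64 (SE 0.165, adjusted p = 0.00476), with 26.2 to 37.1 CPM in mSC and 16.5 to 22.7 in nmSC. Eif4e, the factor that binds the mRNA cap, was higher by 0.41 (SE 0.131, adjusted p = 0.0176), with 149 to 212 CPM in mSC and 109 to 142 in nmSC. Without nmSC replicate 1 its adjusted p was 0.0549. Its repressors, which release Eif4e when phosphorylated by mTOR, had log2 fold changes of 0.58 (SE 0.231, adjusted p = 0.0539) for Eif4ebp1 and -0.31 (SE 0.140, adjusted p = 0.0856) for Eif4ebp2. Eif4ebp1 was uneven among the mSC libraries, from 17.5 to 51.6 CPM, and was called without mSC replicate 1 (0.80, adjusted p = 0.00239) or without nmSC replicate 1 (0.70, adjusted p = 0.0384). With all libraries it was called by the DESeq2 Wald test (adjusted p = 0.0236), and by edgeR with DESeq2 size factors (0.0325) or without the filter on low counts (0.0373).

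The stress-induced inhibitors of mTOR complex 1 were all called, 2 in each direction. Sesn1 (ENSMUSG00000038332, chr10:41809935-41908424 on the plus strand) and Sesn3 (ENSMUSG00000032009, chr9:14275067-14333101 on the plus strand), leucine-sensing or oxidative stress proteins that restrain mTOR complex 1 through the Rag GTPase branch, were higher in mSC. Sesn1 was at 269, 244, 274 and 258 CPM in mSC, 205, 185, 205 and 209 in allSC and 115, 129, 169 and 158 in nmSC. Sesn3 was at 95.3, 93.1, 92.1 and 97.1 CPM in mSC, 63.02, 59.7, 62.4 and 61.6 in allSC and 49.8, 40.9, 45.3 and 55.02 in nmSC. For both genes the gates formed 3 steps without overlap, with log2 fold changes of 0.87 (SE 0.127, adjusted p = 1.72e-05) for Sesn1 and 0.98 (SE 0.120, adjusted p = 1.86e-06) for Sesn3.

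Sesn2 (ENSMUSG00000028893, chr4:132492032-132510501 on the minus strand), the sestrin best known as a leucine sensor, was lower in mSC, opposite to its paralogues. It stood at 7.27, 7.31, 4.74 and 6.24 CPM in mSC, 11.1, 9.18, 9.79 and 11.6 in allSC and 10.96, 10.05, 14.4 and 9.63 in nmSC, with mSC below all others and a log2 fold change of -0.81 (SE 0.190, adjusted p = 0.0021). As a share of the 3 sestrins per kilobase it was 2.51% ± 0.530 in mSC, 5.20% ± 0.364 in allSC and 7.73% ± 1.26 in nmSC, and Sesn1 was the most abundant sestrin in every gate. Ddit4 (ENSMUSG00000020108, chr10:59949669-59951834 on the minus strand), which activates the Tsc complex under hypoxia and other stress, had the largest decrease of the members. It was low everywhere, at 1.70, 2.78, 2.25 and 4.99 CPM in mSC, 3.28, 4.82, 5.86 and 7.35 in allSC and 8.94, 8.09, 9.72 and 6.60 in nmSC. Even the highest mSC library was below the lowest nmSC library, with a log2 fold change of -1.55 (SE 0.300, adjusted p = 0.000372), a 2.94-fold lower level. Its paralogue Ddit4l, from the wider list and singled out after its values were seen, fell further, from 14.8 ± 1.59 CPM in nmSC to 1.17 ± 0.460 in mSC, with a log2 fold change of -3.62 (SE 0.238, adjusted p = 3.56e-10).

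The cells were released from the nerve by warm enzyme digestion before sorting, which is known to induce early response genes. Of 20 genes known to respond to dissociation, 6 were lower in mSC (Jun, Egr1, Ier2, Atf3, Zfp36 and Nr4a1) and 2 were higher (Btg2 and Klf4). That is 40.0% called, near the 40.5% of all tested genes. Their median log2 fold change was -0.10, against -0.16 for all tested genes. Egr1 was at 103 ± 34.3 CPM in mSC and 395 ± 82.2 in nmSC. Their part in the lower Ddit4, Sesn2 and Irs2 of mSC, which stress also induces, was not tested.

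Some calls of smaller changes were lost when 1 library was left out. Mtor lost its call in each of the 12 fits that left out 1 library (highest adjusted p = 0.166, without nmSC replicate 3), Gsk3a in 11 of them, all but the one without mSC replicate 4 (highest 0.133, without mSC replicate 1), and Foxo1 in 10, all but those without mSC replicate 4 or nmSC replicate 3 (highest 0.187, without nmSC replicate 4). Tsc2 lost it in 6, those without mSC replicate 1, 2 or 3 or nmSC replicate 1, 2 or 4 (highest 0.105). Pik3r1 lost it in 7, those without allSC replicate 3, mSC replicate 1 or 3 or any 1 nmSC library (highest 0.0844). With the subject number of the labels as a block, Pik3r1 (adjusted p = 0.0588), Gsk3a (0.0615) and Mtor (0.0516) were not called, leaving 11 members higher and 7 lower. In the comparisons with allSC the block ended the calls of Igf1r in nmSC (0.0744) and Sesn1 in mSC (0.0516).

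**Figure D4:**
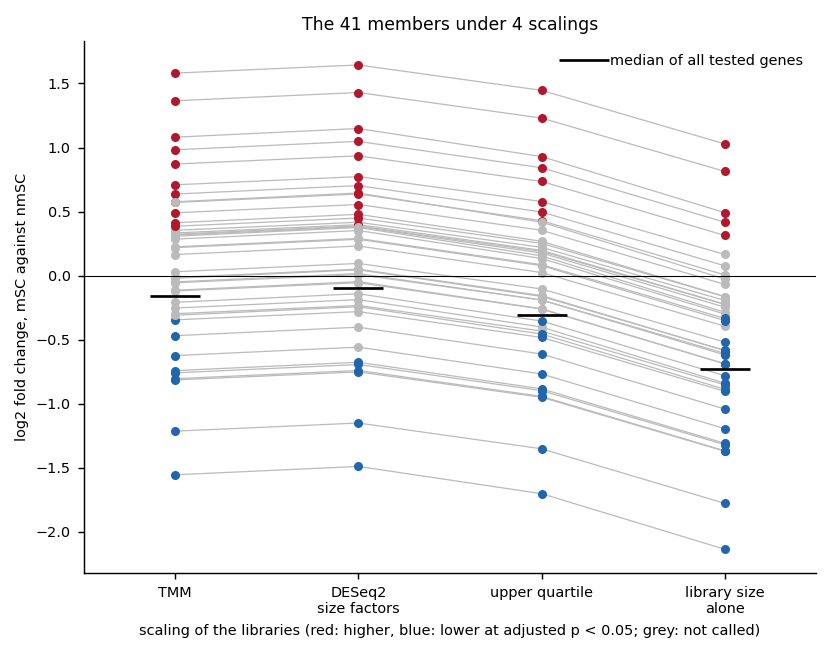
Log2 fold change of mSC against nmSC for the 41 members (1 line each) under 4 scalings of the libraries, with the median of all tested genes as a black bar. All lines fall together with library size alone, where 5 members are higher and 22 lower, and the lines run nearly parallel.

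Against allSC, which holds both kinds of cell, fewer members were called. These comparisons share the allSC libraries with each other, and each is given only by its own values. In mSC, 6 members were higher than in allSC and 4 lower, where 8.76% and 8.8% of all tested genes were. In nmSC, 3 were higher than in allSC and 4 lower, against 2.83% and 7.54% of all tested genes. The members higher in mSC than in allSC were Irs1, Sgk1, Rheb, Akt1, Sesn1 and Sesn3, and the lower ones were Deptor, Ddit4, Phlpp1 and Sesn2. Those higher in nmSC were Igf1r, Irs2 and Deptor, and those lower were Irs1, Sgk1, Rheb and Sesn1. The mean of allSC lay between those of mSC and nmSC for 27 of the 41 members, where 69.5% of all tested genes have it there. It did so for 19 of the 21 members called between mSC and nmSC, the exceptions being Irs2 and Gsk3a. The 69.5% takes in genes that were not called, and the share among all called genes was not counted. Many of the calls against allSC were near the threshold. Leaving out 1 library ended that of Ddit4 between mSC and allSC in 10 of 12 fits and of Sesn1 in 8. Between nmSC and allSC it ended that of Rheb in 8, of Deptor in 6 and of Igf1r in 5. The highest adjusted p in these fits were 0.162 for Ddit4 (without allSC replicate 4), 0.140 for Sesn1 (allSC replicate 2), 0.111 for Rheb (nmSC replicate 3), 0.0947 for Deptor (allSC replicate 2) and 0.149 for Igf1r (nmSC replicate 3). Between mSC and allSC, Irs1 lost its call without allSC replicate 2 or 4 (highest adjusted p = 0.0679), Sesn2 without allSC replicate 4 or mSC replicate 3 (0.0759) and Rheb without allSC replicate 1, 2 or 4 (0.0954), and between nmSC and allSC so did Sesn1 without allSC replicate 4, nmSC replicate 1 or nmSC replicate 2 (0.0647).

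The other genes of the pathway were taken from a list of 98, of which 97 were tested. Of these, 27 were higher and 19 lower in mSC, or 47.4% called, with a median log2 fold change of 0.095, where 20.4% of all tested genes were higher and 20.2% lower, with a median of -0.16. The counts of the sub-lists stand against the same shares. The largest group, the amino acid sensing and lysosomal Rag branch through which mTOR complex 1 reaches the lysosome, had 9 of 26 genes higher and 3 lower. Rragd, a Rag GTPase, rose from 3.07 ± 1.44 CPM in nmSC to 17.2 ± 2.78 in mSC, with a log2 fold change of 2.46 (SE 0.248, adjusted p = 1.48e-07). Its partners Rragc (0.89) and Rraga (0.54) rose less. The lower genes were Fnip1 and Fnip2, partners of folliculin, and Castor1, an arginine sensor, whose paralogue Castor2 was higher.

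The energy sensing AMPK branch, which restrains mTOR complex 1 when ATP is low, had 5 of 9 genes higher and 2 lower. The regulatory subunit Prkag2 rose from 5.81 ± 1.89 to 27.5 ± 4.47 CPM, by 2.22 (SE 0.202, adjusted p = 3.75e-08), and Prkab2, Prkag1, Cab39 and Strada rose as well, while Prkaa2 and Prkab1 fell. Among the mTOR complex and Tsc subunits outside the 41, 2 of 7 were higher and 2 lower. Prr5, a subunit of mTOR complex 2, rose by 2.37 (SE 0.269, adjusted p = 7.35e-07), and its paralogue Prr5l was lower at -1.29 (SE 0.312, adjusted p = 0.0028). Of 5 further kinases of the Akt, Sgk and Rsk group, 2 were higher and 2 lower. Rps6ka2 was higher and Rps6ka3 lower, with log2 fold changes of 0.88 and -0.80.

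Ndrg1, a substrate of Sgk1 that is abundant in myelinating SCs, had the highest count in mSC of all listed pathway genes, at 3819 ± 249 CPM in mSC, 2221 ± 191 in allSC and 787 ± 138 in nmSC. Its log2 fold change was 2.28 (SE 0.135, adjusted p = 9.38e-11). It belongs to the 6 phosphatase and mTOR complex 2 output genes, of which 2 were higher and 1 lower. The binding proteins that carry Igf1 were divided, with 3 of 7 ligand and binding protein genes higher and 3 lower. Igfbp3 (2.25 to 6.70 CPM in mSC, 23.6 to 28.7 in nmSC) and Igfbp4 (3.81 to 11.6 and 28.3 to 31.4) were lower in mSC, with log2 fold changes of -2.51 (SE 0.232, adjusted p = 4.54e-08) and -2.16 (SE 0.231, adjusted p = 3.41e-07). Igfbp2 was higher, with a log2 fold change of 2.04 (SE 0.256, adjusted p = 2.82e-06), at 12.4 to 36.3 CPM in mSC and 4.55 to 6.73 in nmSC. Of the 8 receptors and adaptors 0 were higher and 2 lower, Grb10 and Pik3ap1. Grb10, an adaptor that inhibits the insulin and Igf1 receptors, was at 60.9 ± 9.94 CPM in mSC and 167 ± 19.6 in nmSC, a log2 fold change of -1.46 (SE 0.136, adjusted p = 5.54e-08). The 13 further PI3K subunits and phosphoinositide enzymes had 2 higher (Pik3ip1 and Inpp4a) and 1 lower (Inpp5d), and the 12 translation and autophagy genes 2 higher (Ulk2 and Rb1cc1) and 1 lower (Eef2k). Of 4 tested genes among further FoxO factors and stress inhibitors, 2 were lower, Ddit4l and Trib1.

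**Figure D5:**
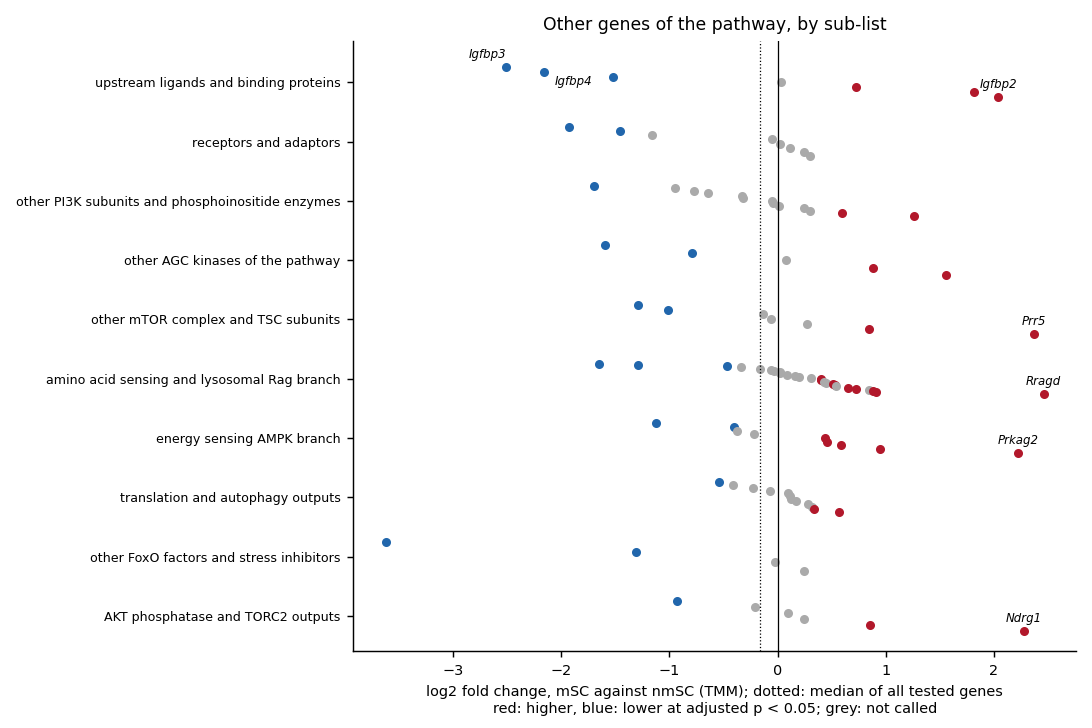
Log2 fold change of mSC against nmSC (TMM) for the 97 tested genes of the wider pathway list, by sub-list, red where called higher and blue where called lower. The 27 higher and 19 lower genes are spread over the sub-lists, and the named genes include Rragd at 2.46 and Igfbp3 at -2.51.

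Of 12 genes that mTOR complex 1 raises through the transcription factor Atf4, 11 were tested, 4 were higher and 1 was lower in mSC. The amino acid transporter subunit Slc3a2 rose from 158 ± 12.7 CPM in nmSC to 556 ± 52.2 in mSC, by 1.82 (SE 0.120, adjusted p = 3.66e-10). Asns and Psat1, enzymes of asparagine and serine synthesis, had log2 fold changes of 1.5 and 0.73, and Atf4 itself of 0.67. Slc7a11, which pairs with Slc3a2 in the cystine transporter, was lower, at -0.98. The median of the 11 was 0.10, against -0.16 for all tested genes.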

How the data were processed

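RNA of the 12 sorted libraries was made into cDNA by Smart-Seq2 and sequenced on a HiSeq4000, after which the authors removed adapters, mapped reads with STAR 2.6.1c (GRCm38.p5 per the labels) and counted genes with featureCounts. The deposited values are raw counts of 25700 genes, not normalized. Here edgeR 4.0.16 (R 4.3.3, limma 3.58.1) was used: TMM scaling, filterByExpr by gate, 1 quasi-likelihood fit over the 12 libraries, and Benjamini-Hochberg adjustment over the 18597 tested genes, with a threshold of 0.05. The study's methods name no test for these counts. RPKM used the union of exons in GENCODE M21 (GRCm38), which matched 25664 of the 25700 genes. DESeq2 1.42.0, other scalings and filters, a block for the subject number and each library left out were alternatives, 20 in all. Members were given in full where called with an absolute log2 fold change of at least 1, then by adjusted p up to 12 in all, and called genes of the wider list were named from an absolute log2 fold change of 1.5 and a mean of 10 CPM; others were named to describe their group. Some genes of the lists are not reported here by name. The members and lists were chosen with earlier results of these data known. The labels give each gate's libraries a subject number from 1 to 4, taken here to mark the same mouse across gates, and no source used here states this further. Deviations of same-numbered libraries from the gate means correlated at -0.0794 to 0.153. Library depth is given above as a range. The p-values of the main fit describe the spread among libraries within the gates, counting error included. This fit has no term for the subject number, so any pairing of libraries across gates enters only the blocked fit.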

Additional observations from a re-analysis of the deposited data

Results flagged for a closer look

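In each gate the 4 libraries of every member were checked for 1 library far from the others by Dixon's ratio at its 95% critical value. Of 123 groups 7 were marked, and chance marks about 1 in 20. Pik3r2 in mSC replicate 4 was 62.1 CPM, where the other 3 libraries were at 109. Pdpk1 was 65.5 CPM in allSC replicate 3 (others 56.9 to 57.6) and 65.2 in nmSC replicate 4 (others 49.6 to 50.8). Phlpp1 in mSC replicate 1 was 11.1 CPM (others 8.74 to 8.94), and Rps6kb2 in the same library was 23.7 CPM (others 32.5 to 33.0). Tsc1 in allSC replicate 1 was 27.3 CPM (others 25.4 to 25.6). Rheb in nmSC replicate 3 was 76.7 CPM (others 109 to 113).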

How the results depend on the processing

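Of 2620 values of single genes under other settings, 2406 kept their side of the threshold, 141 lost a call and 66 gained one. The other 7 changed sign where either fit made a call. Changes of sign without a call in either fit are counted among the 2406. Library size alone moved most. It called 5 members higher and 22 lower in mSC than in nmSC (12 and 9 with TMM), called 15 of 41 between nmSC and allSC (7 with TMM) and called 11864 of all tested genes (7540 with TMM). The log2 fold changes that turned under it with a call in either fit were Pik3r1 -0.25, Phlpp2 -0.069, Tsc2 -0.16, Eif4e -0.16, Foxo3 -0.35, Rptor -0.52 and Mapkap1 -0.33. Some members turned without a call: log2 fold changes between mSC and nmSC were above 0 for 22 members with TMM and for 8 with library size alone. Library size alone is the scaling that moved them. By construction it leaves the composition of the libraries uncorrected, and the difference between the medians of the members and of all tested genes stayed at 0.33. Upper-quartile factors gave 8 higher and 11 lower, DESeq2 size factors 14 and 6, the DESeq2 Wald test 14 and 6, no filter 13 and 6, only the 2 gates compared 10 and 6, the block by subject number 11 and 7 and the stricter filter 12 and 9. With only the 2 gates compared, 11 members were called between nmSC and allSC. Leaving out 1 library at a time gave 9 to 15 higher and 6 to 9 lower in mSC than in nmSC, 6 to 12 called between mSC and allSC, and 3 to 11 called between nmSC and allSC. The low end of the last (3) came without allSC replicate 4 and the high end (11) without mSC replicate 4; 4 were called without allSC replicate 3 or nmSC replicate 1. Without mSC replicate 4 Mapkap1 (adjusted p = 0.0327) and Eif4ebp2 (0.0173) were called as well, and without mSC replicate 1 Gsk3b (0.0319), Akt1s1 (0.0362) and Rictor (0.0134). The blocked fit changed no call of a member other than those of Pik3r1, Gsk3a and Mtor between mSC and nmSC, Sesn1 between mSC and allSC, and Igf1r between nmSC and allSC. Overlapping genes on opposite strands could not be separated without strand. Gm49337 lies on the same strand as Pik3r3, so strand would not separate that pair either. At 4 libraries per gate small changes may be missed.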
